A study of Mus musculus with 5 samples.

Results

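The genes described here are 10 members of the microtubule system: the β-tubulin isotypes Tubb4a, Tubb4b, Tubb2a, Tubb2b and Tubb5, the α-tubulin isotypes Tuba1a and Tuba1b, the tubulin polymerization promoting proteins Tppp and Tppp3, and stathmin 1 (Stmn1). They were chosen by name as 10 of the 11733 genes of the expression matrix, and all 10 had unique molecular identifiers (UMIs) in both libraries. The cells came from the corpus callosum of healthy mice at postnatal day (P) 60 that carried Emx1::Cre together with Sox10::Cre-LoxP-GFP-STOP-TdTom on a mixed CBA and C57BL/6 background. In these mice the Sox10 promoter restricts the reporters to the oligodendrocyte (OL) lineage, and Emx1, which is active in dorsal forebrain progenitors, sets TdTom+ (dorsally derived) apart from GFP+ (ventrally derived) cells. Tissue of 2 mice was pooled and cells were sorted by reporter, and 1 droplet library with 3′ counting was made per origin. The TdTom+ library held 1901 cells and 7129294 UMIs (median 3340 per cell), and the GFP+ library 952 cells and 3584940 UMIs (median 3307 per cell). With no replicate library, differences are given as sizes and without p-values. All intervals are 95% intervals that cover counting error only.

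Microtubules are polymers of α- and β-tubulin dimers, and mammals encode each subunit by several genes, the isotypes, which differ mainly at the tail of the protein. OLs extend many processes and transport membrane, organelles and myelin mRNA along microtubules, and their microtubules lack a single organizing centre. Tubb4a is the isotype known for its abundance in myelinating OLs, and mutations in it cause a hypomyelinating leukodystrophy. TPPP bundles and stabilizes microtubules and nucleates them at Golgi outposts in OLs, and stathmins bind free tubulin and destabilize the polymer.

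Cells carried 12 labels given by the authors, which run from OL progenitor cells (OPC, 83 cells) through committed and newly formed OLs (COP/NFOL, 19 cells) and myelin-forming OLs (MFOL1 and MFOL2) to mature OLs (MOLs). MOL1, MOL2/4, MOL2a, MOL2b, MOL4-5/6, MOL6a and MOL6b, 2180 cells in all, are called mature here, and MOL2/MFOL was kept apart. OPC, COP/NFOL and the mature class as a whole were checked against their markers: 6 of 6 OPC markers and 6 of 7 COP/NFOL markers were highest in that label, and 13 of 14 mature OL markers were higher in mature cells than in OPC and COP/NFOL. Levels (CPM) are UMIs summed over cells and divided by all UMIs of those cells, per 1000000 UMIs. A 3′ library counts 1 tag per captured molecule whatever the transcript's length, so CPM of different genes were not divided by length, and differences in capture between genes remain. The labels were cut from the same expression values, so differences between them are described and not tested.

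The genes lie apart in the genome except for 2 neighbouring pairs. In RefSeq coordinates of GRCm38.p6, Tuba1b (chr15:98931429-98934390) and Tuba1a (chr15:98949847-98953501) were 15457 bases apart, and Tubb2a (chr13:34074278-34078008) and Tubb2b (chr13:34127008-34130354) were 49000 bases apart. Tubb5 (chr17:35833920-35838301) and Tubb4a (chr17:57080061-57087600) shared a chromosome, as did Tppp (chr13:74009419-74035753) with the Tubb2 pair. Tubb4b (chr2:25222158-25224702), Stmn1 (chr4:134468320-134473843) and Tppp3 (chr8:105467492-105471422) stood alone. Of the 351 windows of 50 bases in the last 400 bases of the longest coding GENCODE transcript, 43.9% for Tuba1a and 53.3% for Tuba1b also occurred in another gene, including each other and several pseudogenes. The share was 31.9% for Tubb2a, among others with Tubb2b, and 29.3% for Tubb4b, with pseudogenes of its own. For Tubb4a, Tubb2b, Tubb5, Tppp, Tppp3 and Stmn1 it was 0%. Levels of the 4 genes with shared sequence are therefore less certain.

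RefSeq promoter windows were at hand for 7 of the 10 genes. The 250 bases before the start are shown for Tubb4a, Tuba1a and Tppp, which were higher in COP/NFOL than in OPC, and for Tubb2a, which was high in OPC and low in myelinating cells. Capitals mark ACAAAG or ACAATG (SOX-type sites), GGGCGG (GC box), TATAAA or CCAAT on either strand, and each sequence reads 5′ to 3′ toward the gene.
Tubb4a, chr17:57087601-57087850, minus strand: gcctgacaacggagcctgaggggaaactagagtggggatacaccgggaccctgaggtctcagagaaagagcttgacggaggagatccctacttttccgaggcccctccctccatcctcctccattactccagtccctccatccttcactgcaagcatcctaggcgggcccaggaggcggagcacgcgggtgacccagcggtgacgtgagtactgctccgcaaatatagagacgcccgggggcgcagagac
Tuba1a, chr15:98953502-98953751, minus strand: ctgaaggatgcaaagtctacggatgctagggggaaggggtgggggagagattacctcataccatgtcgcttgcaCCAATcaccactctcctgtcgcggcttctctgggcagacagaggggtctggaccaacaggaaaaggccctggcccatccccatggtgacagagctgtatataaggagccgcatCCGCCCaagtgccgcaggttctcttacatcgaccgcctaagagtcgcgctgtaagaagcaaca
Tppp, chr13:74009169-74009418, plus strand: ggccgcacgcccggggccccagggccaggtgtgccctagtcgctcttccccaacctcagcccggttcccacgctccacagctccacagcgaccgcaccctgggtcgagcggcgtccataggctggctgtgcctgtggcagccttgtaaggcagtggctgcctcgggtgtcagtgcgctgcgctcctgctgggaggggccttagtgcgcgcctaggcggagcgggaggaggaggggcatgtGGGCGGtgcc
Tubb2a, chr13:34078009-34078258, minus strand: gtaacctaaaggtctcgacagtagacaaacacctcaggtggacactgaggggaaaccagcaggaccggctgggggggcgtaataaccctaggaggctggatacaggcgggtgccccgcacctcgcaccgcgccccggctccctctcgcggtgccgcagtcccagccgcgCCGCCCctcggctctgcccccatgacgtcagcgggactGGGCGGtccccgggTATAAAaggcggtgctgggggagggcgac
The Tubb4a window held none of these letters, the Tuba1a window 1 CCAAT and 1 GGGCGG, the Tppp window 1 GGGCGG, and the Tubb2a window 2 GGGCGG and 1 TATAAA, 29 bases before the start. Neither SOX-type site was in these 4 windows, and of the 3 windows not shown that of Tubb5 held 1 ACAAAG, 35 bases before the start. Among the 32851 RefSeq windows of this length, 16.5% held ACAAAG, 10.7% ACAATG, 32.7% GGGCGG, 12.4% TATAAA and 33.8% CCAAT.

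Tubb4a was low in OPC and close to its mature level from COP/NFOL on. Its level was 313 CPM in OPC (83 UMIs, interval 249 to 388), 3251 in COP/NFOL (451 UMIs), 3196 in MFOL1 and 3211 over the mature labels (25057 UMIs). Both libraries showed this step, with 232 CPM in TdTom+ and 426 in GFP+ OPC against 3173 and 3348 CPM in COP/NFOL. All 19 COP/NFOL cells held a Tubb4a UMI, and their single-cell levels ran from 975 to 4967 CPM in TdTom+ and from 694 to 5042 CPM in GFP+ cells. From COP/NFOL onwards, the lowest of the labels was MOL2/4 (2671 CPM) and the highest MOL2b (3637 CPM). Among the 11 pairs of neighbours in the order of the 12 labels, MOL2b over MOL6b and MOL2/4 over OPC were separate both by their intervals and by their libraries, and the other 9 overlapped on at least 1 of these measures.

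Tuba1a, an α-tubulin gene known for its abundance in developing neurons, peaked sharply in COP/NFOL. It stood at 1092 CPM in OPC, 8268 CPM in COP/NFOL (1147 UMIs in 19 cells), 547 CPM in MFOL1 and 1136 CPM over the mature labels. The COP/NFOL level was 5982 CPM in TdTom+ and 11112 CPM in GFP+ cells, and even the lower of these lay above every other label. Single COP/NFOL cells spanned 1370 to 11881 CPM (median 5281) in TdTom+ and 4686 to 28151 CPM (median 9484) in GFP+. After the low point in MFOL1, Tuba1a was higher again in MOL2/MFOL (2188 CPM), MOL1 (1957 CPM) and MOL2/4 (2282 CPM).

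Tubb2b, an isotype known for its role in the migration of young neurons, was high only in OPC and COP/NFOL among the 12 labels. It measured 188 CPM in OPC (50 UMIs), 663 CPM in COP/NFOL (92 UMIs), 1.59 CPM in MFOL1 (2 UMIs) and 10.8 CPM over the mature labels (84 UMIs). The COP/NFOL level was 325 CPM in TdTom+ and 1084 CPM in GFP+ cells, and 1 GFP+ cell held 30 of the 92 UMIs. Tubb2b UMIs were present in 8 of 11 TdTom+ and 8 of 8 GFP+ COP/NFOL cells. Its neighbour Tubb2a was at 97.9 CPM in OPC (26 UMIs), 86.5 CPM in COP/NFOL (12 UMIs, 11 of them in GFP+ cells) and 2.39 CPM in MFOL1 (3 UMIs). Over the mature labels Tubb2a was at 10.6 CPM.

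Tubb5, a broadly expressed β isotype, was also an early gene. Its level was 444 CPM in OPC, 519 CPM in COP/NFOL, 68.4 CPM in MFOL1 and 102 CPM over the mature labels. OPC differed between the libraries, with 587 CPM in TdTom+ and 245 CPM in GFP+, and 1 cell held 33 of the 118 OPC UMIs. Tuba1b, a broadly expressed α isotype, was at 347 CPM in OPC, 281 CPM in COP/NFOL, 72.4 CPM in MFOL1 and 152 CPM over the mature labels. Of its 92 OPC UMIs, 50 lay in 10 cells with at least 3 cell cycle genes. The other 73 OPCs were at 189 CPM of Tuba1b, below the COP/NFOL level. Tubb4b, another broadly expressed isotype, was low everywhere, between 24.2 CPM in MOL4-5/6 and 115 CPM in MOL2/4, and no 2 neighbours in its order of labels were separate.

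Tppp was low in OPC and higher in every later label. Its interval in MOL2/4 (52.4 CPM, 32.4 to 80.1) overlapped that in OPC (6.12 to 44.0). No 2 neighbours in its order of labels were separate both by intervals and by libraries. Tppp was at 18.8 CPM in OPC (5 UMIs in 83 cells), 281 CPM in COP/NFOL (39 UMIs), 155 CPM in MFOL1 and 122 CPM over the mature labels. The COP/NFOL value was carried by TdTom+ cells, of which 8 of 11 held a UMI (455 CPM), against 2 of 8 GFP+ cells (64.7 CPM).

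Tppp3, a relative of Tppp without its long N-terminal tail, and Stmn1 rose a stage later, between COP/NFOL and MFOL1. Tppp3 was at 41.4 CPM in OPC (11 UMIs), 7.21 CPM in COP/NFOL (1 UMI) and 335 CPM in MFOL1 (421 UMIs), and reached 2129 CPM in MOL2a. Stmn1 was at 245 CPM in OPC (65 UMIs), 64.9 CPM in COP/NFOL (9 UMIs), 1576 CPM in MFOL1 (1981 UMIs) and 3103 CPM in MOL2a. Both genes were lowest in COP/NFOL, where median depth was highest of the classes (8215 UMIs per cell, against 2895 in OPC and 3242 in mature cells). Against OPC this is less certain. For Tppp3 the interval of the log2 ratio held 0 (-7.95 to 0.26). For Stmn1, 43 OPC UMIs lay in 10 cells with at least 3 cell cycle genes. The other 73 OPCs were at 99.1 CPM, inside the COP/NFOL interval (29.7 to 123). Both libraries showed the low COP/NFOL level, with Stmn1 at 78.0 CPM in TdTom+ and 48.5 CPM in GFP+ COP/NFOL cells against 1505 and 1712 CPM in MFOL1. MFOL1 was 23.9-fold above COP/NFOL for Stmn1 (log2 ratio 4.58, interval 3.68 to 5.73), while Tubb4a had a log2 ratio of -0.02 (-0.17 to 0.12). In this step Tppp3 (5.36) and Stmn1 were the 2 genes more than 2-fold higher in MFOL1, and Tubb2b (-8.00), Tubb2a (-4.69), Tuba1a (-3.92), Tubb5 (-2.90), Tuba1b (-1.94) and Tubb4b (-1.43) were lower. Tubb2a averaged less than 50 CPM here, Tppp3 reached that mean only through MFOL1, and Tubb2b and Tubb4b only through COP/NFOL. Of 3365 genes averaging 50 CPM or more, 12.1% were higher and 27% lower by that measure, with a median log2 ratio of -0.38.

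**Figure D1:**
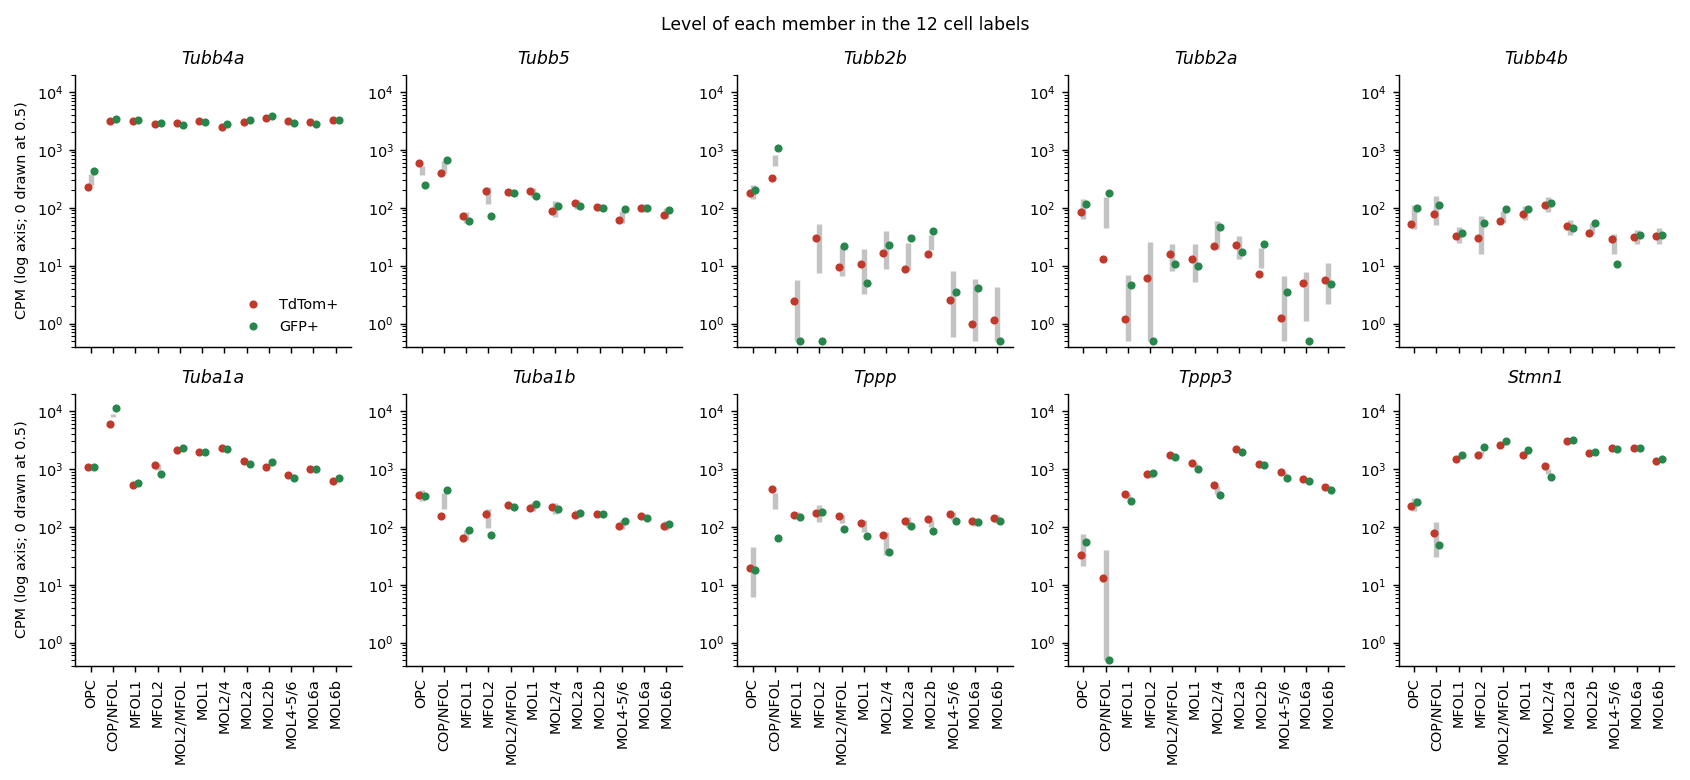
Level of each of the 10 genes (CPM, log axis, 0 drawn at 0.5) in the 12 labels; red points are the TdTom+ library, green points the GFP+ library and grey bars the 95% Poisson interval of both libraries summed. Tubb4a steps up once between OPC (313 CPM) and COP/NFOL (3251 CPM), Tuba1a and Tubb2b peak in COP/NFOL, and Tppp3 and Stmn1 are lowest there.

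The β-tubulin pool changed its make-up from mixed to nearly a single isotype. Of 308 β-tubulin UMIs in OPC, Tubb5 made up 38.3% (exact Clopper-Pearson interval 32.9 to 44.0), Tubb4a 26.9% (22.1 to 32.3), Tubb2b 16.2% (12.3 to 20.8), Tubb2a 8.44% and Tubb4b 6.17%. The libraries differed in the leading isotype, with Tubb5 at 50% and Tubb4a at 19.8% of 182 UMIs in TdTom+ OPC, and at 21.4% and 37.3% of 126 UMIs in GFP+ OPC. In OPC, 1 cell held 33 of the Tubb5 UMIs and 1 cell 15 of the 83 Tubb4a UMIs. In COP/NFOL the Tubb4a share was 70.1% (66.4 to 73.7) of 643 UMIs, with Tubb2b at 14.3% and Tubb5 at 11.2%. In MFOL1 Tubb4a held 96.4% (95.8 to 97.0) of 4166 UMIs, and in mature cells 93.4% (93.1 to 93.7) of 26835. Within the mature labels the share was lowest in MOL2/4, at 85.7% (83.7 to 87.6), where the neuronal isotype Tubb3 held 5.68% (4.47 to 7.12) and Tubb4b 3.68%.

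The α-tubulin pool was led by Tuba1a throughout. Tuba1a made up 74.4% (69.7 to 78.6) of 390 α-tubulin UMIs in OPC, 96.7% (95.5 to 97.7) of 1186 in COP/NFOL, 87.7% of 783 in MFOL1 and 88.0% (87.3 to 88.6) of 10077 in mature cells. Nearly all the rest was Tuba1b, with 23.6% in OPC and 11.8% in mature cells. These shares rest on 2 genes that have windows of identical sequence near their 3′ ends. All α and β isotypes summed to 2629 CPM in OPC, 13184 CPM in COP/NFOL, 3938 CPM in MFOL1 and 4730 CPM in mature cells. The ratio of β to α UMIs was 0.790 in OPC, 0.542 in COP/NFOL, 5.32 in MFOL1 and 2.66 in mature cells, and it was below 1 in both libraries for OPC and COP/NFOL.

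**Figure D2:**
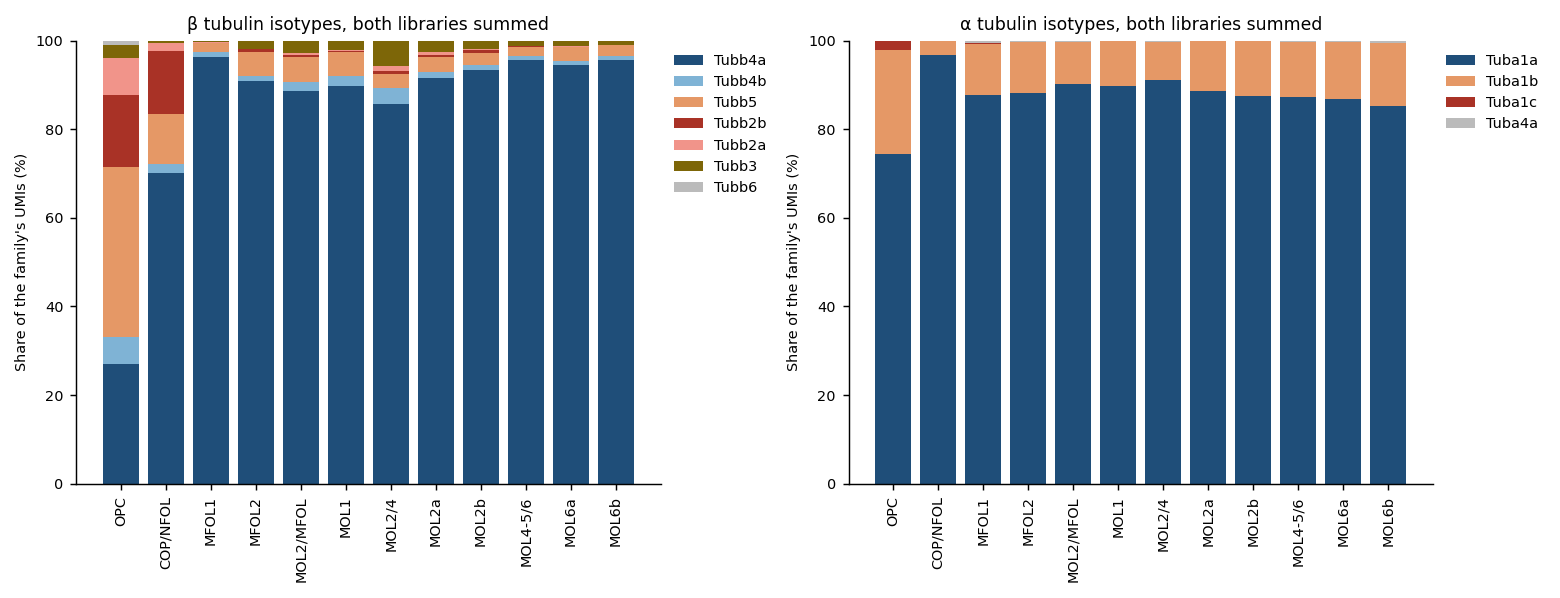
Share of each isotype in the UMIs of its family (percent, stacked bars that sum to 100) in the 12 labels, β-tubulin on the left and α-tubulin on the right, both libraries summed. With both libraries summed, Tubb4a makes up 26.9% of β-tubulin UMIs in OPC (19.8% in TdTom+, 37.3% in GFP+), 70.1% in COP/NFOL and 96.4% in MFOL1, while Tuba1a leads the α-tubulins in every label.

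OPC and mature cells differed by more than 2-fold in 8 of the 10 genes. The 4 that were higher in OPC were Tubb2b (log2 ratio 4.01, interval 3.59 to 4.65), Tubb2a (3.09, 2.51 to 3.85), Tubb5 (2.11, 1.83 to 2.41) and Tuba1b (1.18, 0.86 to 1.49). The 4 that were lower in OPC were Tppp3 (-4.56, -5.59 to -3.75), Tubb4a (-3.36, -3.69 to -3.05), Stmn1 (-3.06, -3.44 to -2.71) and Tppp (-2.64, -4.32 to -1.47). Tuba1a (-0.06) and Tubb4b (0.68) were within 2-fold. Among the 3758 genes whose mean of the class levels reached 50 CPM, 28.3% were more than 2-fold higher and 12.8% more than 2-fold lower in OPC. The median over the 10 genes was 0.31, and over all genes 0.43. Relative to that median gene, 18.6% of genes were higher and 18.1% lower, Tuba1b no longer passed 2-fold (0.75), and Tuba1a was lower by a log2 ratio of 0.49. Each library alone gave the same direction for all 8 genes. Tubb2a, Tubb2b and Tubb4b reached the mean of 50 CPM only through OPC, and Tppp and Tppp3 only through mature cells, so the count of genes past 2-fold is not independent of the filter. Markers of other cell types were also found in OPC: 6 of 9 astrocyte markers had UMIs (1864 CPM in TdTom+ and 1793 CPM in GFP+ summed, against 241 CPM in mature cells; Gfap, Gja1 and Sox9 at 0), as did 8 of 12 neuronal markers (1206 and 1368 CPM, against 74.2 CPM; Nrgn, Stmn2, Nefl and Slc17a7 at 0), while all 7 microglial markers were at 0. Without the 48 OPCs, and other cells, that held at least 3 markers of one such type, 8 of the 10 genes still passed 2-fold, with Tubb4a at -3.44 and Tubb2b at 4.67.

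Low levels in OPC were set beside those of myelin mRNA, which can reach any droplet as free RNA. The OPC level as a percentage of the mature level was 9.74% for Tubb4a, 15.4% for Tppp, 11.9% for Stmn1 and 4.15% for Tppp3. For 11 myelin transcripts it ranged from 2.40% to 13.5% (Cnp), with a median of 3.82%. Without Cnp the highest of them was 5.77% (Mbp). By these values Tppp lay above all 11, Tubb4a and Stmn1 above 10 of the 11, and Tppp3 among them. The Tppp value rests on 5 UMIs (18.8 CPM, interval 6.12 to 44.0). For Stmn1, 43 of the 65 OPC UMIs lay in 10 cells with cell cycle genes. The other 73 OPCs stood at 99.1 CPM of Stmn1, against 2050 CPM in mature cells. The part of free RNA in these levels was not tested. After thinning each cell to 2400 UMIs, 46.5% of 71 OPCs held a Tubb4a UMI (interval 34.5 to 58.7; 61.4% of 83 unthinned), against 99.7% of 1996 mature cells (99.9% unthinned). The thinned share for Tppp3 was 7.04% in OPC and 77.5% in mature cells (10.8% and 83.0% unthinned). For Tubb2b it was 32.4% in OPC and 1.55% in mature cells (36.1% and 2.57% unthinned). The median over the 10 genes in mature cells was 28.4%.

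Several of these genes were higher in OPCs with cell cycle transcripts. The share of all genes higher in such cells was not counted, so these differences have no background to be set beside. Of the 83 OPCs, 10 held UMIs of at least 3 of 24 cell cycle genes. These 10 cells carried 43 of the 65 OPC UMIs of Stmn1 (991 CPM, against 99.1 CPM in the other 73 cells; log2 ratio 3.31, interval 2.55 to 4.13), and all 10 held at least 1. Tubb4b (277 against 31.5 CPM; 3.09), Tuba1b (1152 against 189 CPM; 2.60) and Tubb5 (1337 against 270 CPM; 2.30) were higher in them as well, but on few cells. The Tubb4b value rests on 12 UMIs in 4 of the 10 cells, and 1 cell gave 20 of the 50 Tuba1b UMIs and 1 cell 33 of the 58 Tubb5 UMIs. Tubb4a (323 and 311 CPM), Tuba1a (1129 and 1085 CPM), Tubb2a and Tubb2b had ratios whose intervals held 0. Without all cells that held 3 cell cycle genes, the log2 ratio of OPC over mature cells became -4.35 for Stmn1, 1.40 for Tubb5 and 0.31 for Tuba1b, and that of Tubb4b turned to -0.48.

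**Figure D3:**
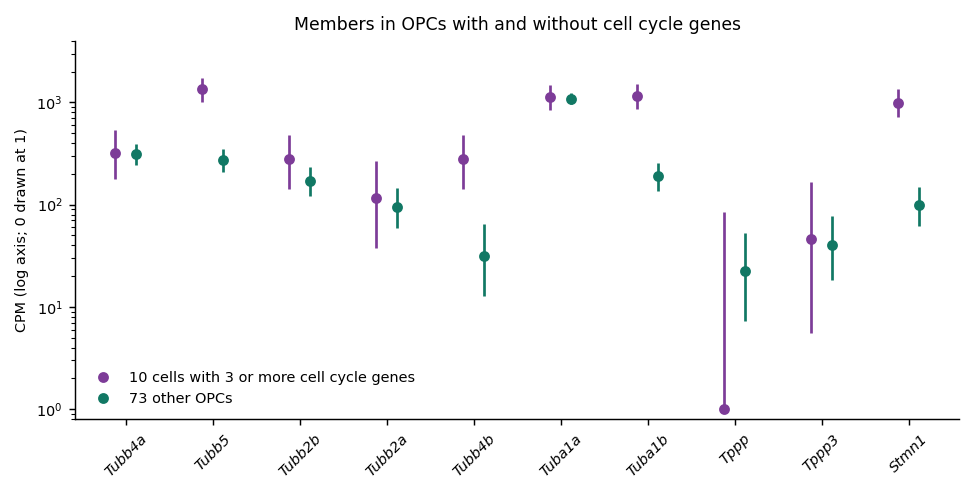
Level of each gene (CPM, log axis, 0 drawn at 1) in the 10 OPCs with at least 3 cell cycle genes (purple) and in the 73 other OPCs (green), with 95% Poisson intervals. Stmn1, Tubb4b, Tuba1b and Tubb5 are higher in the first group (log2 ratios 2.30 to 3.31), and the intervals of the other genes overlap.

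COP/NFOL and mature cells also differed by more than 2-fold in 8 of the 10 genes, though not the same 8. Those higher in COP/NFOL were Tubb2b (log2 ratio 5.82, interval 5.50 to 6.39), Tubb2a (2.91), Tuba1a (2.86, 2.77 to 2.95), Tubb5 (2.34, 1.98 to 2.70), Tppp (1.19, 0.70 to 1.66) and Tubb4b (1.07, 0.16 to 1.88). Those lower were Tppp3 (-6.93, -12.42 to -4.63) and Stmn1 (-4.96, -6.11 to -4.06). Tubb4a was level between the stages (0.02, -0.12 to 0.15) and Tuba1b was within 2-fold (0.88), though not in GFP+ cells alone (1.45, against 0.07 in TdTom+). Without Tubb2a, whose mean was under 50 CPM, 7 of 9 genes passed (5 higher and 2 lower), of which Tubb2b and Tubb4b reached that mean only through COP/NFOL, and Tppp3 only through mature cells. Of all 3413 genes averaging 50 CPM or more, 24.9% were more than 2-fold higher and 12.6% more than 2-fold lower in COP/NFOL, with a median log2 ratio of 0.32. Relative to the median gene those shares were 17.3% and 16.7%, and Tppp (0.87) and Tubb4b (0.75) no longer passed. Tppp had opposite directions in the libraries, 1.75 in TdTom+ and -0.61 in GFP+ (-2.50 to 0.76), and Tubb2a (3.54, against 0.53 in TdTom+) and Tubb4b (1.17, against 0.90) passed 2-fold only in GFP+ cells. With 19 cells, these intervals understate the spread between cells.

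From OPC to COP/NFOL, the 4 genes more than 2-fold higher were Tppp (3.83), Tubb4a (3.37), Tuba1a (2.92) and Tubb2b (1.81). Stmn1 (-1.90) and Tppp3 (-2.37, interval -7.95 to 0.26), which averaged less than 50 CPM, were lower. Of the 65 Stmn1 UMIs in OPC, 43 lay in the 10 cells with cell cycle genes. The other 73 OPCs were at 99.1 CPM, inside the COP/NFOL interval of Stmn1 (29.7 to 123). In TdTom+ cells alone Tubb2b was within 2-fold (0.84, against 2.44 in GFP+), and in GFP+ cells alone the Tppp interval held 0 (1.78, -0.97 to 5.30). Tubb5 (-0.54 in TdTom+ and 1.44 in GFP+), Tuba1b (-1.18 and 0.38) and Tubb2a (-2.60 and 0.59) had opposite signs in the libraries. Tppp reached the mean of 50 CPM only through COP/NFOL. Among 4055 genes averaging 50 CPM or more, 13% were higher and 18.9% lower. This step was added after the other values were seen.

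**Figure D4:**
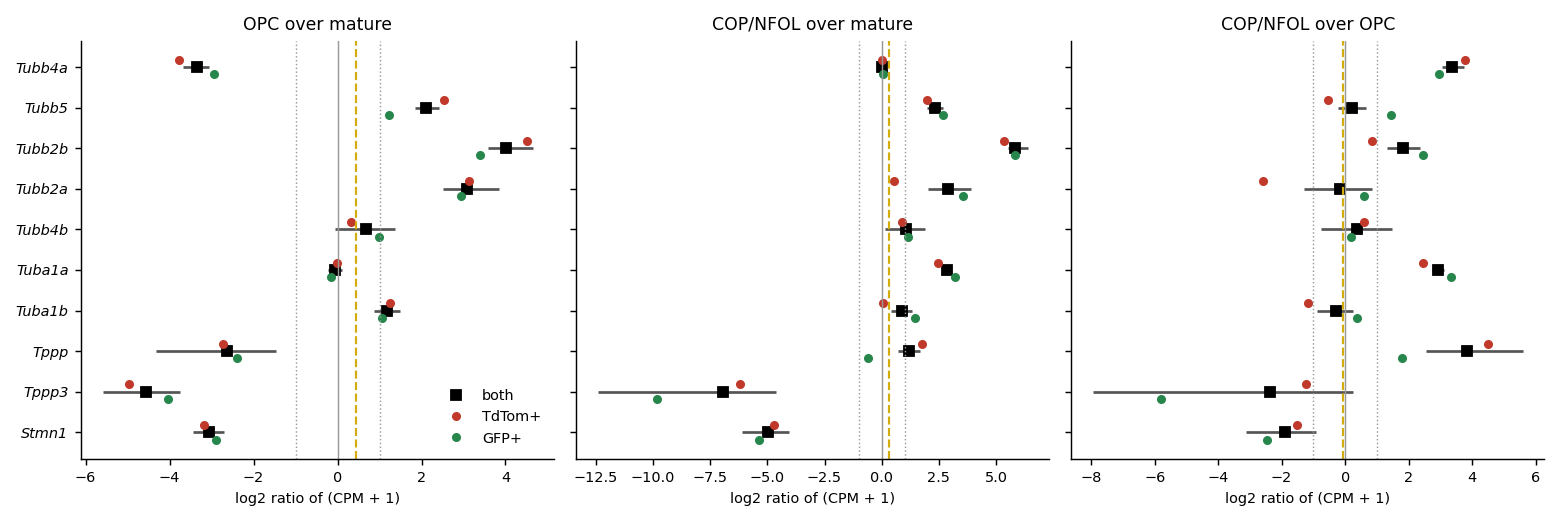
Log2 ratio of (CPM + 1) for the 10 genes in OPC over mature, COP/NFOL over mature and COP/NFOL over OPC; black squares are both libraries summed with the 95% counting interval, red and green points the TdTom+ and GFP+ libraries alone, dotted lines mark 2-fold and the dashed line the median gene. Tubb4a is lower in OPC (-3.36) but level between COP/NFOL and mature cells (0.02), and the libraries have opposite signs for Tppp in COP/NFOL over mature and for Tubb5, Tuba1b and Tubb2a in COP/NFOL over OPC.

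Mature labels differed in most of these genes, with Tubb4a as the exception. Of the 8 genes averaging 50 CPM or more over the 7 labels, 7 had a ratio of highest to lowest label above 2, where 40.6% of 2890 genes did. Tubb4b reached that mean only through MOL2/4 and MOL1, where it was high. Tppp3 ranged from 2129 CPM in MOL2a to 436 CPM in MOL2/4, and Stmn1 from 3103 CPM to 910 CPM between the same labels. In both libraries MOL2a was the highest label for these genes, and MOL2/4 was the lowest except for Tppp3 in TdTom+ cells, where MOL6b (484 CPM) lay below MOL2/4 (537 CPM). Tuba1a ran the other way at its top, from 2282 CPM in MOL2/4 to 638 CPM in MOL6b (a ratio of 3.57, with the same 2 labels in each library). Tubb4b was also highest in MOL2/4 and lowest in MOL4-5/6 (115 and 24.2 CPM), Tubb5 was highest in MOL1 (184 CPM), and Tppp was lowest in MOL2/4 (52.4 CPM) and highest in MOL4-5/6 (156 CPM). Tubb4a had a ratio of 1.36. In its order of labels, Stmn1 had 8 of 11 neighbours separate by intervals and by libraries, and Tuba1a and Tppp3 had 6 each. Within mature cells thinned to 2400 UMIs, the Pearson correlation of Tppp3 and Stmn1 across 1996 cells, which share libraries and labels, was 0.29, and 0.05 to 0.34 within single labels.

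MFOL2 holds 66 cells, and 2 of its TdTom+ cells carried genes of other cell types. In 1 of these, with 4182 UMIs, 19 of the 36 Tubb5 UMIs and 35 of the 240 Tuba1a UMIs of MFOL2 were found beside 8 Stmn2 and 5 Dcx UMIs, genes of young neurons (Dcx was also present in OPC), and 0 Tubb4a UMIs. The other held 100 UMIs of microglial markers. Without both cells Tubb5 in MFOL2 was 80.1 CPM in place of 163 CPM, Tuba1a 952 CPM in place of 1088 CPM, and Tubb4a 2930 CPM in place of 2820 CPM.

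TdTom+ and GFP+ libraries were compared because the study asked whether dorsal and ventral origin set apart the OL populations. Over all cells, 4 of the 10 genes differed by a log2 ratio of more than 0.25. Tppp was higher in TdTom+ (141 against 102 CPM, log2 ratio 0.46, interval 0.29 to 0.64). Tubb2b (14.4 against 39.9 CPM, -1.40), Tubb2a (10.2 against 18.7 CPM, -0.81) and Tubb4b (42.6 against 54.4 CPM, -0.34) were lower in TdTom+. Of the 7 genes averaging 50 CPM or more only Tppp passed, and 2.7% of 2958 such genes were higher and 2.57% lower by this measure. Among all 11652 genes with a UMI, the background for the 4 of 10, 13.7% were higher and 16.4% lower. The smallest differences were those of Tubb4a at 3073 and 3139 CPM (-0.03, -0.06 to 0.00), Stmn1 at 1986 and 1982 CPM (0.00, -0.04 to 0.04) and Tubb5 at 123 and 117 CPM (0.06). Tppp3 (0.24, 0.18 to 0.30) and Tuba1a (-0.21, -0.26 to -0.16) lay just inside the limit, with intervals that left out 0. Such an interval does not cover differences between sorts or library preparations, which cannot be told apart from origin here.

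Tppp was higher in the TdTom+ library in 11 of 12 labels, with intervals that left out 0 in COP/NFOL (2.80), MOL2/MFOL (0.78) and MOL2b (0.65), and it was 0.44 (0.23 to 0.65) over the mature labels. The COP/NFOL cells of the libraries also differed in markers of that label, with Gpr17 at 1222 CPM in TdTom+ and 3542 CPM in GFP+, Bmp4 at 338 and 1165 CPM and Tcf7l2 at 1547 and 501 CPM, and the part of this in the Tppp ratio was not tested. Tppp3 was higher in 10 of 12 labels. For Tubb4a and Stmn1, level over all cells, the interval left out 0 in 5 of 12 labels each, with both signs among them. Tubb2b was lower in TdTom+ over the mature labels too, on 36 and 48 UMIs (-1.26, -2.04 to -0.72). When both libraries were given the same composition of labels, the log2 ratio was -1.09 for Tubb2b and 0.14 for Tppp3. This does not cover differences within a label. COP/NFOL, whose markers differed between the libraries, held 25 of the 103 TdTom+ and 67 of the 143 GFP+ Tubb2b UMIs. The step in Tubb4a from OPC to COP/NFOL had the same direction in both libraries, with a log2 ratio of 3.77 in TdTom+ and 2.97 in GFP+ cells, and the OPC level itself was lower in TdTom+ (-0.87, -1.54 to -0.22). That OPC ratio rests on 36 and 47 UMIs, and 1 cell held 15 of these 83.

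**Figure D5:**
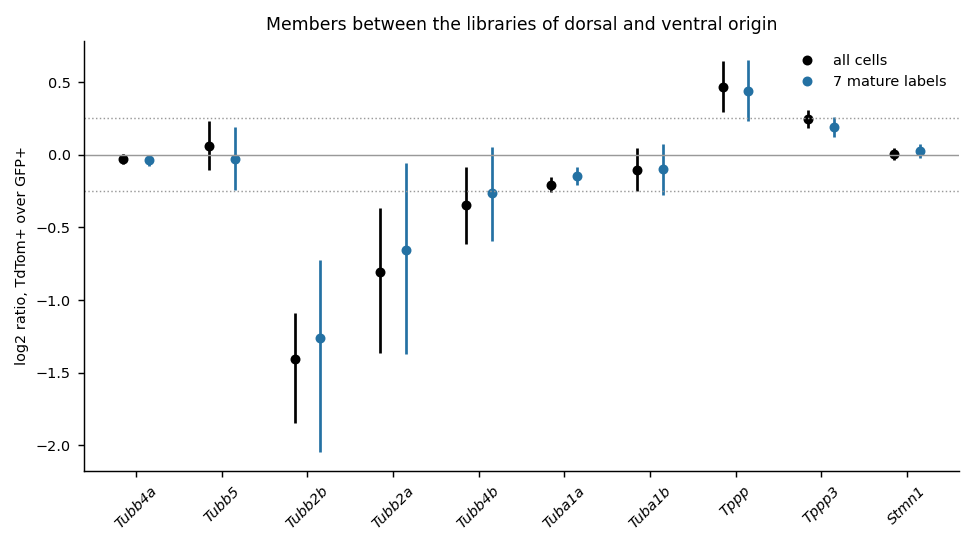
Log2 ratio of TdTom+ over GFP+ for each gene over all cells (black) and over the 7 mature labels (blue), with 95% counting intervals; dotted lines mark 0.25 either way. Tppp lies above 0.25, Tubb2b, Tubb2a and Tubb4b lie below -0.25, and Tubb4a and Stmn1 lie at 0 within 0.04.

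The wider microtubule lists held 129 further genes of the matrix, from tubulin folding factors to kinesins and dynein. Of the 71 averaging 50 CPM or more over OPC and mature cells, 17 were over 2-fold higher and 14 over 2-fold lower in OPC, where 28.3% and 12.8% of all genes were, and their median log2 ratio was 0.12. Among the 107 listed genes with at least 20 CPM in either class, lowest in OPC were Map6d1, a microtubule-stabilizing protein (18.8 against 230 CPM), Ttll7, a β-tubulin polyglutamylase (139 against 1574 CPM), Ttll5, another glutamylase (1 UMI, 3.77 against 45.7 CPM), and the kinesin Kif21a (22.6 against 219 CPM). Highest in OPC were Tacc2 (136 CPM; 2 UMIs in mature cells, interval of the log2 ratio 7.09 to 12.15), Dcx (121 CPM; 2 UMIs, 6.91 to 11.98), Stmn3 (407 against 5.25 CPM) and Clip4 (49.0 CPM; 2 UMIs, 5.43 to 10.77). Of the 16 stabilizing and structural MAPs, Tppp and Tppp3 included, 8 were lower and 4 higher in OPC. In the other lists without α- and β-tubulins there were 3 higher and 1 lower of 13 tubulin folding factors, 3 and 2 of 11 plus and minus end proteins, 2 and 2 of 5 destabilizing and severing proteins (Stmn1 included, among the lower), 1 and 1 of 4 tubulin modifying enzymes, 1 and 2 of 8 kinesins, 3 and 1 of 15 dynein and dynactin genes and 0 of 2 nucleation factors.

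In COP/NFOL, 17 of 65 listed genes were more than 2-fold higher and 10 more than 2-fold lower than in mature cells, against 24.9% and 12.6% of all genes at the same mean level. The dynein light chains Dynll1 (3013 against 305 CPM) and Dynll2 (2429 against 177 CPM), the dendritic MAP Map2 (267 against 16.9 CPM) and the kinesin Kif19a (9 UMIs, 64.9 CPM, against 1 UMI) had the highest ratios. The lowest were Tacc1 and Kif3c, each with 0 UMIs in COP/NFOL (at least 4.30-fold and at least 1.89-fold lower, taking 3 counts over the class as the floor), Ttll7 (21.6 against 1574 CPM) and the stathmin Stmn4 (43.2 against 2233 CPM). Stmn4 thus shared the low COP/NFOL level of Stmn1, with 335 CPM in OPC and 1595 CPM in MFOL1, and so did Ttll7, with 139 and 2092 CPM. Among mature labels the widest ranges of the lists were those of Kif21b (43.2 CPM in MOL6b, 4.99 CPM in MOL2/4), Tubb3 (177 CPM in MOL2/4, 30.1 CPM in MOL6b), Dclk1 (57.0 CPM in MOL6b, 9.98 CPM in MOL2/4) and Dynlt3 (92.0 CPM in MOL2a, 24.9 CPM in MOL2/4). Kif21b and Dclk1 averaged less than 50 CPM, and the highest and lowest labels given for them were not the pair found in either library alone. Of 12 neuronal markers 2 had UMIs in MOL2/4, and Tubb3, which is itself on that list, gave 71 of their 75 UMIs.

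Between the libraries, 1 of 65 listed genes was higher and 2 were lower in TdTom+ by a log2 ratio above 0.25, against 2.7% and 2.57% of all genes at the same mean level. Among the 91 listed genes with at least 20 CPM in either library, most of those named here averaging less than 50 CPM, the largest ratios were Camsap2 (-0.45), Dynll1 (-0.36), Cct8 (-0.35) and Cdk5rap2 (-0.34) on the lower side and Katnal1 (0.37), Ttll5 (0.32), Map4 (0.27) and Kif3c (0.25) on the higher side.

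The genes whose pattern over the 12 labels was most like each member were found by Pearson's r of log2(CPM + 1) over 3141 genes averaging 50 CPM or more, as a description. Tubb4a was most like Mbp (r = 0.996), followed by Secisbp2l and Cpm, and these points share cells and depth. Tubb4a was at 313 CPM in OPC and 2671 to 3637 CPM in the other labels, so this r rests mainly on OPC. OPC was also the lowest label of Mbp, Secisbp2l and Cpm, while Mbp was highest in MOL2a and Tubb4a in MOL2b. Tuba1a was most like Actb (0.947), which also peaked in COP/NFOL, Fam49b and Acat2. Tubb2b was most like Ptpre (0.964), Sema5a and Olfm1, Tubb2a most like Npdc1 (0.909), Olfm1 and Actr1b, and Tubb5 most like Asrgl1 (0.977), Dcun1d5 and Gnas. Tuba1b was followed by Hsd17b12 (0.936), Gdi2 and Uchl3, Tubb4b by Cadm4 (0.934), Abhd12 and Gorasp2, and Tppp by Snx30 (0.975), RP23-291B1.2 and Tmem80. Tppp3 was most like Ppp2r2c (0.980), Pip4k2a and Stmn1 (0.977), and Stmn1 most like Wbp2 (0.986), Dnah14 and Nkd1. Among the members, Tppp3 and Stmn1 were the closest pair (0.977) and Tubb2b and Stmn1 the most opposed (-0.80).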

How the data were processed

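TdTom+ and GFP+ cells of the corpus callosum were profiled with 10x 3′ v2 chemistry, 1 library each, from tissue pooled from 2 mice. Spinal cord samples were not analysed here. Per the paper's methods the authors aligned reads with STAR, and the submitters' processing notes name Cell Ranger 2.1.1 and mm10. The gene annotation was not given in the sources used here. Per those methods, cells needed 200 to 3000 genes and less than 5% of UMIs from mitochondrial genes, and 2820 of the 2853 deposited cells met these limits when recounted here. The authors integrated both libraries before clustering. How doublets were treated is not stated, and no caller was run here. The deposited expression matrix (11733 genes, 2853 cells) gives, as a signal, which part of a cell's UMIs each gene took. The deposited total count per cell, the library and the authors' label (12 labels) were read from the table of cells, whose other 37 columns were not used. Dividing by each cell's smallest value above 0 gave UMI counts, with 100% of values whole within 0.01. Of the cell barcodes, 1 occurred in both libraries.

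UMIs were summed per label and library and given as CPM (Python 3.11.15, scipy 1.17.1). Ratios used a pseudocount of 1 CPM and an exact interval conditional on both sums (without the pseudocount), levels an exact Poisson interval and shares an exact Clopper-Pearson interval, all at 95%, tested on simulated data. Calls were set at 2-fold between classes and at a log2 ratio of 0.25 between libraries. Cells were thinned to 2400 UMIs with a seed of 1, which left out 150 TdTom+ and 74 GFP+ cells. A cell counted as of another type, or as dividing, with UMIs of at least 3 listed genes. Scaling factors were those of edgeR 4.0.16 (TMM) and the median of ratios. Besides the 10 members, the text names in each comparison the 4 highest and 4 lowest further genes of the microtubule lists with at least 20 CPM in either class (for the mature labels the 4 widest ranges), and the 3 genes most like each member. The members and lists were chosen with earlier results of these data known. Comparisons of COP/NFOL with OPC and with MFOL1, of OPCs with and without cell cycle genes, and of MFOL2 without 2 cells were added after values were seen. Transcripts were those of GENCODE vM21, and positions and promoters those of RefSeq on GRCm38.p6.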

Additional observations from a re-analysis of the deposited data

Results flagged for a closer look

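Tppp in COP/NFOL over mature cells went in opposite directions in the 2 libraries, with a log2 ratio of 1.75 in TdTom+ and -0.61 in GFP+ cells; the difference between these ratios was not tested, and the GFP+ value rests on 4 UMIs in 8 cells. Tubb4a in the same comparison had a log2 ratio of -0.004 (-0.003805) in TdTom+ and 0.03 in GFP+, opposite signs that both lie at 0 within their intervals, and this was not tested either. Outside the comparisons, 1 TdTom+ cell labelled MFOL2 held 8 Stmn2 and 5 Dcx UMIs together with 4 Mki67 UMIs, while the other 65 MFOL2 cells held no Stmn2 UMI. Another TdTom+ cell of that label held 100 UMIs of microglial markers, of 111 in all 2853 cells.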

How the results depend on the processing

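No paired analysis was possible because each origin had only 1 library, and for the same reason no replicate could be left out. Counts of genes past 2-fold between OPC and mature cells (8, or 7 by the mean of each cell's CPM, by median-of-ratios factors and without dividing cells), between COP/NFOL and mature cells (6 to 8) and among mature labels (6 or 7) stayed within 1.5 times the reported count under every alternative run, as did the count between libraries (4 or 5). Among single ratios past the fold limit, Tppp in COP/NFOL over mature cells changed sign in the GFP+ library alone (-0.61). Tubb4b in OPC over mature cells, which was within 2-fold, changed sign without cells holding cell cycle genes (-0.48). Of 250 single ratios under alternatives, 207 stayed within their counting interval. The Tubb4a share of mature β-tubulin UMIs was 93.7% in TdTom+ alone, 92.7% in GFP+ alone and 92.8% with MOL2/MFOL. The median share of mature cells with a UMI was 36.6% without thinning, 12.5% when thinned to 1000 UMIs and 4.61% for at least 2 UMIs, by construction. Depth limits the small labels, with 3 counts equal to 11.3 CPM in OPC and 21.6 CPM in COP/NFOL.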
